A study of Mus musculus with 60 samples.

Results

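TRBV17, TRBV19 and TRBV29 are the mouse T cell receptor beta variable (V) gene segments that encode the V beta 9, V beta 6 and V beta 7 chains. They were followed here as every clonotype labelled with one of these segments in the beta chain (TCRB) tables of sorted donor CD4+ and CD8+ T cells. A clonotype is a distinct CDR3 amino acid sequence, the loop that spans the junction of the V, D and J segments and contacts peptide. Of 85775 clonotypes in the CD4+ table, 6028 were members (1144 TRBV17, 3574 TRBV19 and 1310 TRBV29), and of 82447 in the CD8+ table, 18237 were members (2937, 5895 and 9405). The tables listed 28 and 26 V segments. Of the CD4+ members, 2 TRBV17, 13 TRBV19 and 5 TRBV29 clonotypes were listed at 0 in all 15 libraries, and of the CD8+ members 4, 7 and 17.

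The series holds 60 libraries of alpha or beta chains, of which 30 are TCRB. Donors were C57BL/6 mice of 3 genotypes: WT, STAT3ko (a floxed Stat3 gene deleted by CD4-Cre, so in T lineage cells of both subsets) and STAT3koPD-1ko (the same deletion in mice that are also PD-1-/-). Each CD4+ or CD8+ table has 1 spleen library per genotype taken before hematopoietic cell transplantation (HCT) and, for each genotype, 2 liver and 2 gut libraries of donor T cells taken on day 6 after HCT. The hosts were lethally irradiated BALB/c mice, which in all groups also received T cell-depleted bone marrow of WT C57BL/6 donors. Every day 6 library pools lymphocytes of 3 recipients, so the spread between libraries is that between pools and may be partly technical. Donor cells were sorted as H-2Kb+ TCR beta+ and CD4+ or CD8+. The tables hold receptor chains only, so the markers used for the sort were not measured.

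A V beta domain carries 2 of the loops that touch the MHC molecule and a side face that superantigens bind, which lets a superantigen stimulate or delete nearly all T cells with a given V beta whatever their CDR3. Mouse mammary tumor proviruses (Mtv) in the germline encode such superantigens. V beta 6, 7 and 9 are known for reacting with the product of Mtv-7 (Mls-1a), a provirus that neither C57BL/6 nor BALB/c mice carry, whereas V beta 3, 5, 11 and 12 (TRBV26, TRBV12-1 with TRBV12-2, TRBV16 and TRBV15) react with superantigens of BALB/c mice. V beta 7 is also used, with V beta 8 and V beta 2, by invariant natural killer T (NKT) cells.

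The 3 genes lie on the plus strand of chromosome 6 in build GRCm38, each with 2 exons and annotated by GENCODE as a TCR V gene: Trbv17 at chr6:41163062-41163556, Trbv19 at chr6:41178375-41179048 and Trbv29 at chr6:41271394-41271881. The germline bases with which each starts the CDR3 are shown first, because they are what separates the 3 segments inside the sequences that were counted. Capitals mark the codon of the conserved cysteine.
TRBV17: TGTgctagcagtagaga
TRBV19: TGTgccagcagtatag
TRBV29: TGTgctagcagtttatc
TRBV19 parts from the others by a base of the second codon, and TRBV17 and TRBV29 first part at the fifth codon. CDR3s starting CASSR made up 44.7% of CD8+ TRBV17 clonotypes, those starting CASSI 37.4% of CD8+ TRBV19 clonotypes and those starting CASSL 28.3% of CD8+ TRBV29 clonotypes.

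The clonotypes below are shown because they were listed in the largest number of libraries for their segment, first in CD8+ and then in CD4+ T cells. Capitals mark bases that neither the germline V start nor the germline J end matches, which are D segment and added bases. A single base sequence is given for each CDR3 amino acid sequence, here and below. The libraries that list a clonotype may hold other base versions of it.
CD8+ TRBV17 with TRBJ2-7, 15 libraries: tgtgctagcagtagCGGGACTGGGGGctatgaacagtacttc
CD8+ TRBV19 with TRBJ2-7, 15 libraries: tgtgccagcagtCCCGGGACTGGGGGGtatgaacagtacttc
CD8+ TRBV29 with TRBJ1-1, 15 libraries: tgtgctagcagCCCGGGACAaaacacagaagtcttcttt
CD4+ TRBV17 with TRBJ1-2, 12 libraries: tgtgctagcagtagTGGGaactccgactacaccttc
CD4+ TRBV19 with TRBJ2-2, 14 libraries: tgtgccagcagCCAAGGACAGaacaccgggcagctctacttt
CD4+ TRBV29 with TRBJ1-1, 15 libraries: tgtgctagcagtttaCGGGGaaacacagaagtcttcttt

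Some features of the libraries touch all results. The libraries taken before HCT shared member clonotypes with liver replicate 1 of the same genotype. The share of member reads in common (the sum of the smaller of each clonotype's 2 shares) was 42.4% to 55.5% in CD4+ and 41.4% to 56.4% in CD8+ T cells, against means of 3.01% and 6.68% between libraries before HCT and liver replicate 1 of another genotype. For gut replicate 1 of the same genotype it was 21.2% ± 4.01 and 23.1% ± 3.01 (SD, n = 3). The listed clonotypes covered 47.8% to 51.5% (CD4+) and 53.2% to 58% (CD8+) of the reads in gut replicate 2 libraries, against 81.6% to 97.2% and 81.5% to 98.4% in the other libraries. The day 6 overlaps followed the gut library more than the replicate number: liver replicate 2 shared 25.2% (CD4+) and 37.2% (CD8+) of member reads with gut replicate 1 of its genotype, and 4.79% and 13.5% with gut replicate 2. The study used 2 batches, which the labels do not tie to replicate numbers, so values within each number are given in place of values within each batch. Read depth is unknown, since the tables hold fractions only.

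Each table also gives every CDR3 amino acid sequence 1 row and 1 V label, which then covers its reads in all libraries. Of 17941 CDR3s found in both tables, 6335 (35.3%) carried the same V label in both. Of the shared CDR3s labelled TRBV29 in the CD8+ table (2397), 294 (12.3%) were also TRBV29 in the CD4+ table, and those 294 were 53% of the 555 labelled TRBV29 in the CD4+ table. For TRBV19 the same label covered 345 CDR3s (40.5% of 852 CD4+ and 38.4% of 899 CD8+), and for TRBV17 it covered 56 (30.8% of 182 and 10.3% of 543). The CDR3s of the 3 CD8+ clonotypes printed above, for example, were labelled TRBV5 (that of TRBV17) and TRBV13-1 (those of TRBV19 and TRBV29) in the CD4+ table. A usage below is therefore that of the V labels the tables carry.

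TRBV29 was the most used V segment in every CD8+ library and a minor one in CD4+ T cells. Usage is the percentage of a library's listed reads that carry the segment, and as a share it cannot tell fewer cells of a kind from less receptor RNA per cell. Over 15 libraries TRBV29 usage ran from 18.4% to 25.5% in CD8+ and from 0.907% to 4.01% in CD4+ T cells, with means of 20.8% and 2.59%. The 8.01-fold ratio of these means was the highest of CD8+ over CD4+ among the 21 segments compared, while TRBV23 and TRBV26 differed more in the other direction (CD8+ over CD4+ ratios 0.0461 and 0.0768). TRBV17 usage was 2.71% to 4.24% in CD8+ and 0.452% to 1.54% in CD4+ T cells, a 3.65-fold ratio of means. For neither segment did the 2 sets of libraries overlap, as was the case for 52.4% of segments. TRBV19 usage was 4.9% to 7.63% in CD8+ and 2.31% to 5.08% in CD4+ T cells, so these libraries overlapped, with a 1.51-fold ratio of means. The tables were made separately and no test was run between them.

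Among V segments TRBV29 ranked first in usage in 15 of 15 CD8+ libraries, TRBV19 held ranks 3 to 8 and TRBV17 ranks 10 to 12. CD4+ TRBV19 held ranks 6 to 12, TRBV29 ranks 10 to 20 and TRBV17 ranks 17 to 22. The order TRBV29, TRBV19, TRBV17 held in each CD8+ library and the order TRBV19, TRBV29, TRBV17 in each CD4+ library.

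**Figure D1:**
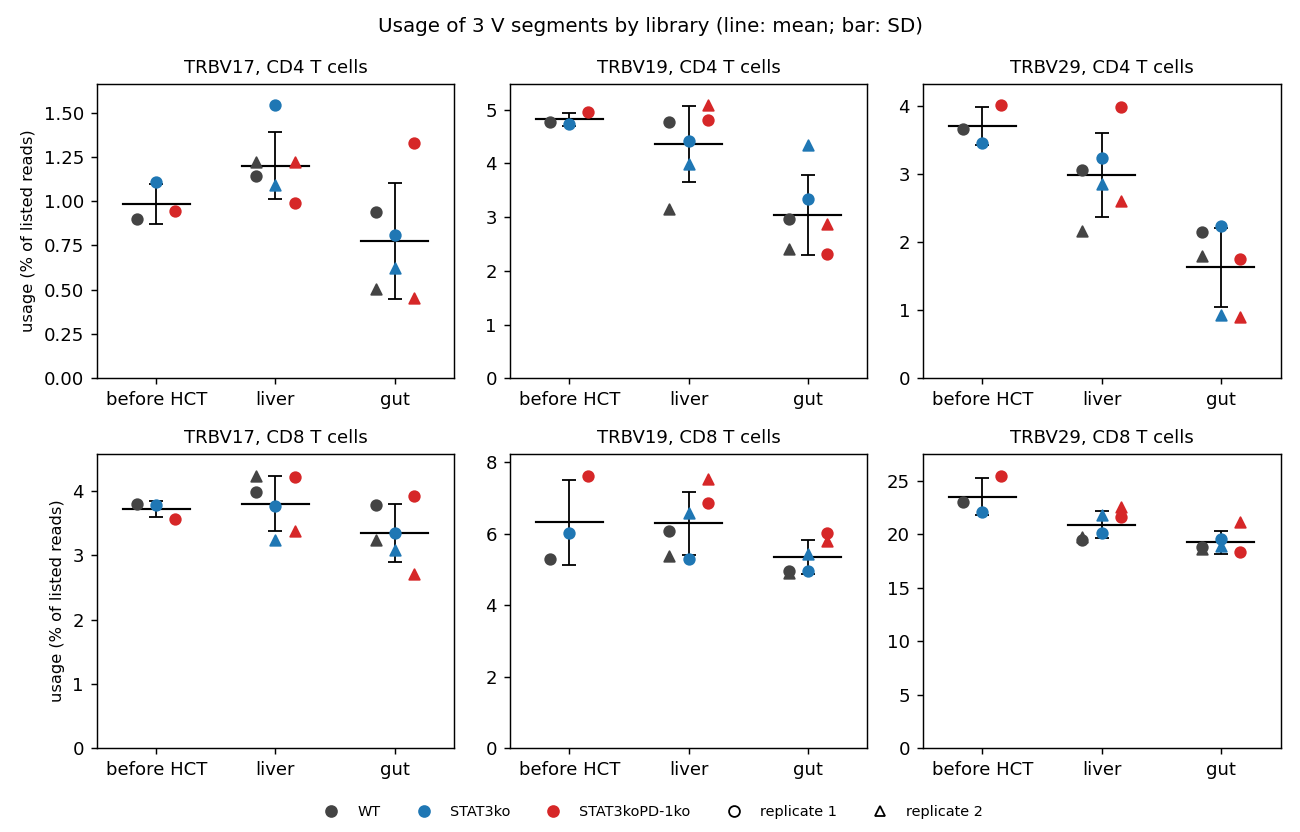
Usage of TRBV17, TRBV19 and TRBV29 (% of listed reads, linear axes from 0) in each library of CD4+ (top) and CD8+ (bottom) T cells before HCT (n = 3) and in liver and gut on day 6 (n = 6 each). Color gives the genotype and shape the replicate number, and lines and bars are mean and SD. CD4+ TRBV29 lies at 3.46% to 4.01% before HCT and at 0.907% to 2.24% in gut, with no overlap.

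The rank of TRBV29 in CD8+ T cells did not rest on widely shared clonotypes. Among CD8+ clonotypes listed in at most 3 of 15 libraries, TRBV29 usage was 16.9% ± 2.15 (SD, n = 15), among those in 4 to 7 libraries 22.1% ± 3.3 and among those in at least 8 libraries 26.1% ± 3.21. In all 3 classes TRBV29 had the highest mean usage of any segment. TRBV19 usage in CD8+ T cells went the other way, with 7.06% ± 1.17, 5.67% ± 1.26 and 4.28% ± 0.646, and so did TRBV17 with 4.13% ± 0.669, 3.63% ± 0.952 and 2.56% ± 0.53. These classes use the same libraries and are given as a description. CD4+ TRBV29 usage was 2.36% ± 1.17, 2.98% ± 1.38 and 2.71% ± 1.52 in the 3 classes. CD4+ TRBV19 usage was 4.86% ± 1.66, 3.85% ± 1.01 and 1.48% ± 0.441, and CD4+ TRBV17 usage 1.41% ± 0.406, 0.595% ± 0.277 and 0.333% ± 0.192, so both were lower among the widely shared clonotypes.

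**Figure D2:**
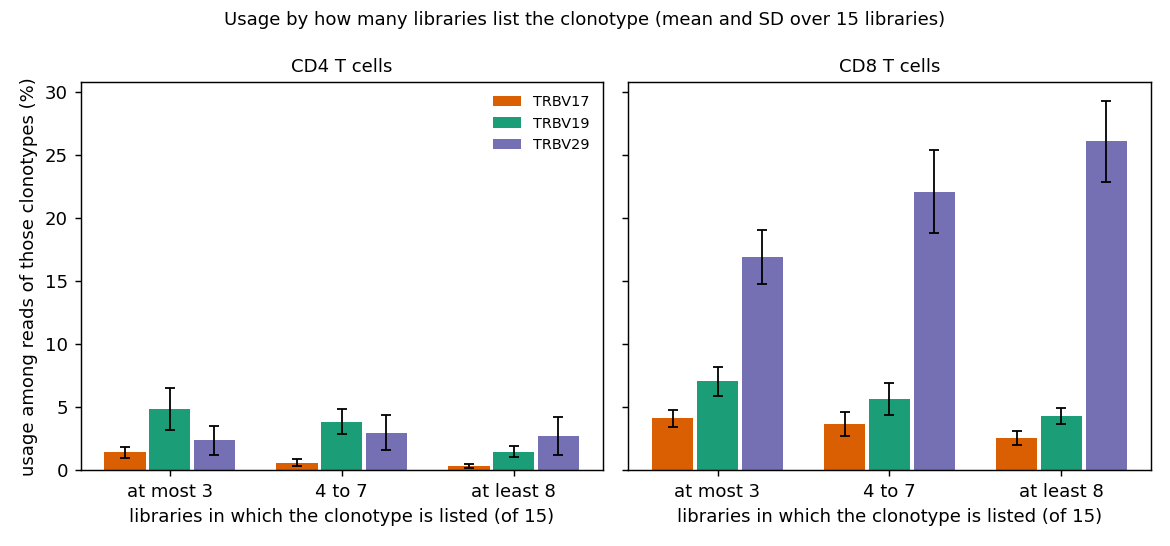
Usage of TRBV17, TRBV19 and TRBV29 (%, y axis) among the reads of clonotypes listed in at most 3, 4 to 7 or at least 8 of the 15 libraries (x axis), as mean and SD over 15 libraries, for CD4+ and CD8+ T cells. In CD8+ T cells TRBV29 goes from 16.9% to 26.1% and TRBV19 from 7.06% to 4.28%.

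To see whether usage of the segments differed between tissues, the gut was compared with the liver and both with the spleen before HCT. In CD4+ T cells TRBV29 was lower in gut. Before HCT, TRBV29 usage was 3.67% in WT, 3.46% in STAT3ko and 4.01% in STAT3koPD-1ko. In liver it was 3.06% and 2.17% (WT), 3.24% and 2.86% (STAT3ko) and 3.99% and 2.6% (STAT3koPD-1ko). In gut it was 2.15% and 1.8% (WT), 2.24% and 0.934% (STAT3ko) and 1.76% and 0.907% (STAT3koPD-1ko). All 6 gut libraries lay below all 3 libraries before HCT, while gut STAT3ko replicate 1 lay just above liver WT replicate 2. From before HCT to gut TRBV29 fell by 1.21 on the log2 scale (SE 0.26, limma adjusted p = 0.000666), to 0.431 of its level. From liver to gut it fell by 0.89 (SE 0.24, limma adjusted p = 0.00422). The latter change did not pass with each clonotype counted once (-0.13, adjusted p = 0.184) or with only the CDR3s that start with C and end in F, W or L (-0.61, adjusted p = 0.0503).

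CD4+ TRBV19 usage before HCT was 4.77% in WT, 4.73% in STAT3ko and 4.96% in STAT3koPD-1ko. In liver it was 4.78% and 3.15% (WT), 4.41% and 3.99% (STAT3ko) and 4.8% and 5.08% (STAT3koPD-1ko), and in gut 2.96% and 2.41%, 3.34% and 4.35%, and 2.31% and 2.88%. Gut libraries did not overlap with those before HCT, and overlapped with liver, where WT replicate 2 and STAT3ko replicate 2 lay below gut STAT3ko replicate 2. The log2 change was -0.68 from before HCT to gut (SE 0.18, limma adjusted p = 0.00253) and -0.52 from liver to gut (SE 0.15, limma adjusted p = 0.0081). Neither passed among the CDR3s of that form alone, at -0.32 (adjusted p = 0.122) and -0.22 (adjusted p = 0.187). CDR3s of that form held a mean of 99.9% of the reads of each of the 3 CD4+ segments. The limit thus removed almost none of their own reads, and changed usage mainly through the total it is divided by.

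CD4+ TRBV17, the rarest of the 3, had a usage of 0.899% (WT), 1.11% (STAT3ko) and 0.944% (STAT3koPD-1ko) before HCT. The liver values were 1.14% and 1.22% (WT), 1.54% and 1.09% (STAT3ko) and 0.992% and 1.22% (STAT3koPD-1ko), and in gut 0.936% and 0.502%, 0.807% and 0.622%, and 1.33% and 0.452%. The 3 gut replicate 2 libraries were the lowest of the 15, and the gut replicate 1 libraries overlapped with liver and with the spleen before HCT. TRBV17 fell by 0.64 on the log2 scale from liver to gut (SE 0.22, limma adjusted p = 0.015). From before HCT to gut its log2 change was -0.39 (95% interval -0.90 to 0.13, limma adjusted p = 0.154), and it was -0.58 (adjusted p = 0.00759) without gut STAT3koPD-1ko replicate 1. The change from before HCT to gut also passed as percent of all reads (-0.81, adjusted p = 0.0422), with each clonotype counted once (-0.71, 0.0025) and without clonotypes above 0.1% of any library (-0.62, 0.00188). Percent of all reads also falls with the share of reads listed, which was 47.8% to 51.5% in CD4+ gut replicate 2 libraries. The change from liver to gut did not pass with each clonotype counted once (-0.41, 0.0615), with only CDR3s starting with C and ending in F, W or L (-0.37, 0.172), or with clonotypes in at least 3 (-0.45, 0.157) or at most 3 libraries (-0.46, 0.0881). Without the 3 gut replicate 2 libraries the log2 change of TRBV17 was -0.22 from liver to gut (adjusted p = 0.21) and 0.03 from before HCT to gut.

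The falls of the 3 segments in CD4+ gut were part of a wide shift. From liver to gut 85.7% of the 21 segments tested passed the threshold of adjusted p below 0.05, with 61.9% lower and 23.8% higher in gut, and from before HCT to gut 81%, with 57.1% lower and 23.8% higher. The median log2 change of all tested segments was -0.46 from liver and -0.40 from before HCT. Relative to that median TRBV17, TRBV19 and TRBV29 changed by -0.18, -0.06 and -0.43 from liver to gut and by 0.02, -0.28 and -0.81 from before HCT to gut. TRBV26 (V beta 3) rose from a mean of 9.09% of reads in liver to 25.4% in gut and TRBV23 from 3.7% to 10.6%, each by 1.49 on the log2 scale. Of the segments that react with BALB/c superantigens, TRBV26, TRBV12-1 and TRBV12-2 were higher in gut than in liver (log2 changes 1.49, 0.48 and 0.65), TRBV16 was lower (-0.46) and TRBV15 did not pass (0.02, limma adjusted p = 0.847). Of the other V beta segments known from NKT cells, TRBV13-1, TRBV13-2, TRBV13-3 and TRBV1 were all lower in CD4+ gut than liver, with log2 changes of -0.31, -0.80, -0.48 and -0.66.

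Since usage sums to 100%, the 3 segments were also computed among reads without TRBV26 and TRBV23. The liver to gut changes were then -0.24, -0.09 and -0.47 for TRBV17, TRBV19 and TRBV29, and none passed (limma adjusted p = 0.415, 0.673 and 0.131). With usage centred on each library's median segment they were -0.26, -0.15 and -0.51, and none passed either (adjusted p = 0.393, 0.429 and 0.0781). From before HCT to gut TRBV29 still passed in both, at -0.70 (adjusted p = 0.0482) and -0.84 (adjusted p = 0.0135), while TRBV19 did not, at -0.15 (adjusted p = 0.475) and -0.30 (adjusted p = 0.131). The fall of CD4+ TRBV29 from before HCT to gut passed under each of 13 alternatives, with log2 changes of -1.69 to -0.40, and with each library left out, with -1.34 to -1.05. Without the 3 gut replicate 2 libraries it was -0.83 (adjusted p = 0.000312). Counted over clonotypes found in at most 3 libraries, it was -1.13 (adjusted p = 0.0177). Within replicate number 1 the mean liver to gut difference in log2 usage over the 3 genotypes was -0.24 ± 0.62 for CD4+ TRBV17, -0.69 ± 0.32 for TRBV19 and -0.71 ± 0.37 for TRBV29 (SD, n = 3), and within number 2 it was -1.04 ± 0.28, -0.35 ± 0.46 and -1.06 ± 0.70. TRBV29 was lower in gut in all 3 genotypes within both numbers, and TRBV17 (number 1) and TRBV19 (number 2) in 2 of 3. Without the 3 liver replicate 1 libraries the liver to gut changes of TRBV17, TRBV19 and TRBV29 were -0.62, -0.41 and -0.68, and none passed (adjusted p = 0.0937, 0.0888 and 0.0874).

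**Figure D3:**
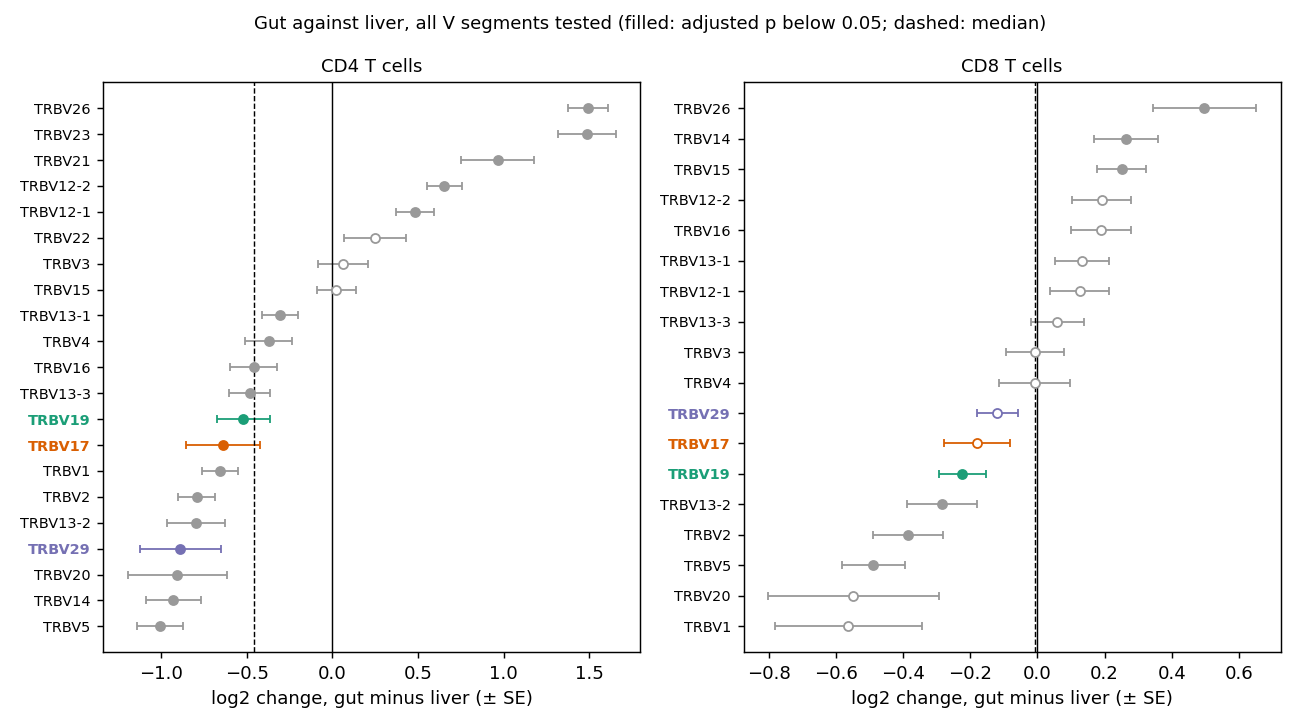
Log2 change in usage from liver to gut (x axis, gut minus liver, ± SE of limma) for each V segment tested in CD4+ (21 segments) and CD8+ T cells (18 segments), in order of size. Filled points have an adjusted p below 0.05, and the dashed line is the median of all segments, at -0.46 in CD4+ and -0.01 in CD8+ T cells. TRBV17, TRBV19 and TRBV29 are in color, and 13 CD4+ segments pass as lower in gut.

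In liver none of the 3 segments differed detectably from the spleen before HCT in CD4+ T cells. The log2 changes were 0.25 for TRBV17 (95% interval -0.26 to 0.77), -0.16 for TRBV19 (-0.53 to 0.22) and -0.33 for TRBV29 (-0.89 to 0.24), with limma adjusted p of 0.437, 0.501 and 0.437. In that comparison 9.52% of 21 segments passed, TRBV26 and TRBV23, both higher in liver. The liver replicate 1 libraries share clonotypes with those before HCT, and without them none of the 3 segments passed either.

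In CD8+ T cells the changes were smaller. TRBV29 usage was 23% (WT), 22.1% (STAT3ko) and 25.5% (STAT3koPD-1ko) before HCT. In liver it was 19.5% and 19.8% (WT), 20.1% and 21.8% (STAT3ko) and 21.6% and 22.6% (STAT3koPD-1ko), and in gut 18.8% and 18.6%, 19.6% and 18.9%, and 18.4% and 21.2%. All gut libraries lay below those before HCT, and the gut and liver libraries overlapped. TRBV29 fell by 0.29 on the log2 scale from before HCT to gut (SE 0.07, limma adjusted p = 0.00907), to 0.818 of its level, in a comparison where 50% of 18 segments passed, 33.3% lower and 16.7% higher in gut. The change from liver to gut was -0.12 (95% interval -0.25 to 0.01, limma adjusted p = 0.107) and that from before HCT to liver -0.17 (-0.32 to -0.02, limma adjusted p = 0.258). The liver to gut change of TRBV29 passed with all TRBV segments tested (-0.12, adjusted p = 0.047) and as percent of all reads (-0.56, adjusted p = 0.0302). The latter measure also falls with the share of reads listed, which was 53.2% to 58% in CD8+ gut replicate 2 libraries.

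The fall from before HCT to gut did not pass in all settings. Without clonotypes above 0.1% of any library the CD8+ TRBV29 change was 0.05 (adjusted p = 0.722), and with each clonotype counted once it was 0.03 (adjusted p = 0.556). The former limit also removes clonotypes that are frequent only before HCT. Centred on each library's median segment the change was 0.03 (adjusted p = 0.765). Uncentred, it was -0.27 relative to the median change of all segments, which was -0.02. Over clonotypes found in at most 3 libraries the TRBV29 change from before HCT to gut was -0.20 (adjusted p = 0.184). It was -0.27 (adjusted p = 0.0802) without the WT library before HCT, and -0.31 (adjusted p = 0.00944) without the 3 gut replicate 2 libraries.

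CD8+ TRBV19 usage was 5.3% (WT), 6.03% (STAT3ko) and 7.63% (STAT3koPD-1ko) before HCT. The liver values were 6.08% and 5.39% (WT), 5.3% and 6.59% (STAT3ko) and 6.86% and 7.54% (STAT3koPD-1ko), and in gut 4.97% and 4.9%, 4.97% and 5.43%, and 6.03% and 5.81%. The gut libraries overlapped with both other sites. TRBV19 fell by 0.22 from liver to gut (SE 0.07, limma adjusted p = 0.0313) and by 0.22 from before HCT to gut (SE 0.08, limma adjusted p = 0.0412), where 38.9% (22.2% lower and 16.7% higher) and 50% of 18 segments passed. With the replicate number as a block, the liver to gut change of TRBV19 was -0.22 (adjusted p = 0.0189). These calls were narrow. The liver to gut change did not pass without liver WT replicate 1 (-0.20, adjusted p = 0.0741), liver STAT3ko replicate 2 (-0.19, 0.0714), liver STAT3koPD-1ko replicate 1 (-0.23, 0.0657) or 2 (-0.20, 0.0798), gut WT replicate 2 (-0.22, 0.0551) or gut STAT3koPD-1ko replicate 2 (-0.21, 0.0604). The change from before HCT to gut did not pass without any 1 of 10 libraries (-0.28 to -0.17, adjusted p of 0.0507 to 0.236): all 3 before HCT, liver WT replicate 2, both liver STAT3koPD-1ko replicates, gut WT replicate 1, gut STAT3ko replicate 1 and both gut STAT3koPD-1ko replicates. Centred on the median segment, TRBV19 changed by 0.11 from liver to gut (adjusted p = 0.306) and by 0.10 from before HCT to gut. Uncentred, its changes relative to the median of all segments were -0.22 and -0.20. The liver to gut call was also lost with each clonotype counted once, with clonotypes in at least 3 or at most 3 libraries, and without the liver replicate 1 libraries. That from before HCT to gut was lost with both of these library limits and without the gut replicate 2 libraries.

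CD8+ TRBV17 usage was 3.8%, 3.78% and 3.57% before HCT, 3.99% and 4.24%, 3.77% and 3.24%, and 4.21% and 3.38% in liver, and 3.78% and 3.24%, 3.35% and 3.09%, and 3.93% and 2.71% in gut, in the same order of genotypes. All 3 sites overlapped. The log2 change was -0.18 from liver to gut (SE 0.10, 95% interval -0.40 to 0.03, limma adjusted p = 0.126) and -0.16 from before HCT to gut (-0.40 to 0.09, adjusted p = 0.229). With the replicate number as a block the liver to gut change of TRBV17 passed (-0.18, adjusted p = 0.0406), as it did without gut STAT3koPD-1ko replicate 1 (-0.24, adjusted p = 0.0469) and as percent of all reads (-0.61, adjusted p = 0.0308). Percent of all reads also falls with the lower share of reads listed in gut replicate 2 libraries. The block rests on a pairing by replicate number that the overlaps of clonotypes given above do not follow. Within numbers 1 and 2 the mean liver to gut differences in log2 usage were -0.11 ± 0.05 and -0.25 ± 0.17 for CD8+ TRBV17, -0.19 ± 0.10 and -0.26 ± 0.12 for TRBV19, and -0.11 ± 0.11 and -0.13 ± 0.07 for TRBV29 (SD, n = 3), each lower in gut in 3 of 3 genotypes.

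From before HCT to liver 0% of the 18 CD8+ segments passed limma's adjusted threshold, 2 had an unadjusted p under 0.05, and the changes of TRBV17 and TRBV19 were 0.03 (95% interval -0.22 to 0.27) and near 0 (-0.18 to 0.18). Of the BALB/c superantigen segments in CD8+ T cells, TRBV26 and TRBV15 were higher in gut than in liver (log2 changes 0.50 and 0.25) and TRBV12-1, TRBV12-2 and TRBV16 did not pass. Of the NKT segments, TRBV13-2 was lower in CD8+ gut than liver (-0.28), and TRBV13-1, TRBV13-3 and TRBV1 did not pass. The invariant NKT alpha chain, a TRAV11 to TRAJ18 rearrangement of fixed length, made up 0.00478% to 0.108% of alpha chain reads in CD4+ and 0.00354% to 0.137% in CD8+ libraries. Alpha and beta chains were read in separate libraries, and the part of TRBV29 usage held by such cells was not tested.

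To see whether STAT3 loss, or PD-1 loss on top of it, went with usage of these segments, the day 6 libraries were compared between genotypes with tissue in the model (4 libraries each). In limma 0 of 21 CD4+ and 0 of 18 CD8+ segments (0%) passed in either comparison, and the members' groups overlapped in all of them. In CD4+ T cells the log2 changes from WT to STAT3ko were 0.08 for TRBV17 (95% interval -0.49 to 0.66), 0.30 for TRBV19 (-0.11 to 0.71) and -0.09 for TRBV29 (-0.72 to 0.53). From STAT3ko to STAT3koPD-1ko they were -0.04 (-0.62 to 0.53), -0.16 (-0.57 to 0.25) and -0.05 (-0.67 to 0.57). Differences within these intervals were not detectable with these libraries. In CD8+ T cells the intervals were narrower, with -0.17 (-0.44 to 0.09), 0.06 (-0.13 to 0.25) and 0.06 (-0.10 to 0.23) from WT to STAT3ko. From STAT3ko to STAT3koPD-1ko TRBV17 changed by 0.06 (-0.20 to 0.33), TRBV19 by 0.23 (0.04 to 0.42, limma unadjusted p = 0.021, adjusted p = 0.189) and TRBV29 by 0.06 (-0.10 to 0.22). At an unadjusted p under 0.05, the counts over all segments were 0 and 4 in CD4+ and 1 and 3 in CD8+ T cells for the 2 comparisons.

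Part of the CD4+ TRBV17 label, like those of some other segments, was held by CDR3s that do not begin like the segment. Of 1144 CD4+ TRBV17 clonotypes, 410 (35.8%) began with the residues CAW, against 120 of 2937 (4.09%) in CD8+ T cells. Over all segments 2.87% of CD4+ and 0.817% of CD8+ clonotypes began so, and the share was higher than that of TRBV17 in CD4+ TRBV22 (64.1%), TRBV28 (54.3%), TRBV24 (37.8%) and, with 5 and 2 clonotypes in all, TRBV25 and TRBV7. The germline CDR3 start of TRBV31 is shown because it encodes that beginning.
TRBV31: TGTgcctggagtct
No clonotype was labelled TRBV31 in either table. CAW clonotypes held 5.4% to 34.9% of TRBV17 reads in CD4+ and 0.111% to 1.59% in CD8+ libraries. Without CAW clonotypes TRBV17 usage was 0.425% to 1.39% in CD4+ and 2.71% to 4.23% in CD8+ T cells, which still did not overlap, and the CD4+ liver to gut change was -0.59 (limma adjusted p = 0.0275) and that from before HCT to gut -0.24 (adjusted p = 0.396). Of CD4+ clonotypes, 60.7% of TRBV17, 98.5% of TRBV19 and 97.3% of TRBV29 began with the first 9 bases of their own germline start, and of CD8+ clonotypes 94.6%, 97.7% and 97.2%. These 9 bases are the same in TRBV17 and TRBV29, so they do not tell those 2 segments apart.

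The CD8+ TRBV29 CDR3s were short and drew often on the TRBJ1 cluster, the set of J segments nearer to the V genes. Weighted by reads, the mean CD8+ TRBV29 CDR3 had 13.1 ± 0.0708 residues (SD, n = 15) and lay below the median of the other segments in 15 of 15 libraries. The CD4+ mean was 13.4 ± 0.195 residues and lay below that median in 13 of 15. CDR3s of 13 residues held 41.7% of CD4+ TRBV29 reads, against 25.7% for the other segments together. TRBV19 lay below the median length in 13 of 15 CD8+ and 5 of 15 CD4+ libraries, and TRBV17 in 7 and 5.

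**Figure D4:**
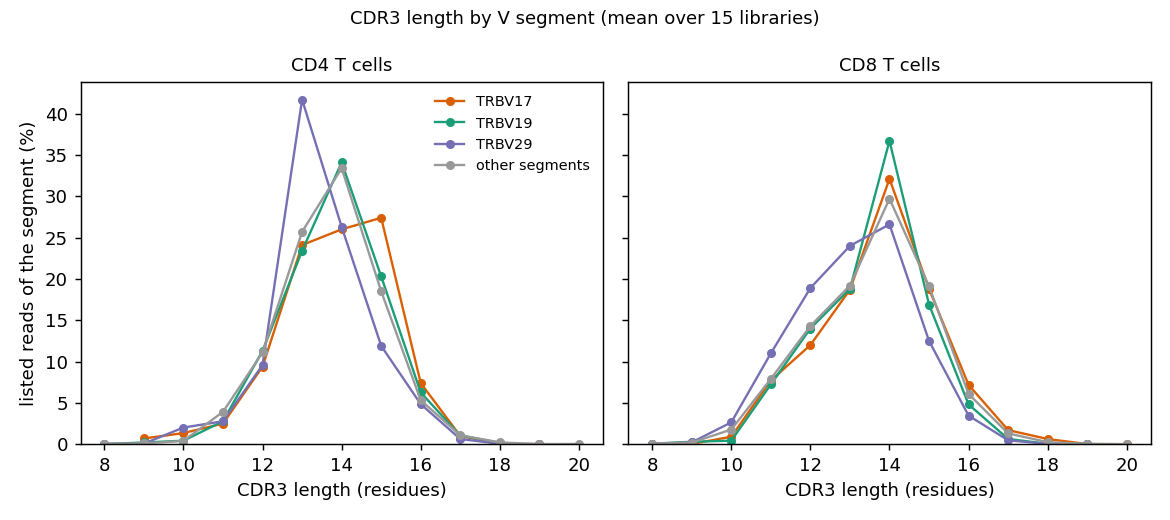
CDR3 length in residues (x axis) against the share of the segment's listed reads (%, y axis, mean over 15 libraries) for TRBV17, TRBV19, TRBV29 and all other V segments together, in CD4+ and CD8+ T cells. CD4+ TRBV29 peaks at 13 residues with 41.7% of reads, where the other segments have 25.7%.

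TRBJ1 segments were carried by 37.5% ± 3.07 of CD8+ TRBV29 reads (SD, n = 15), above the median of the other segments in 15 of 15 libraries. CD8+ TRBV17 had 21.6% ± 3.54, below that median in 15 of 15, and CD8+ TRBV19 had 32.7% ± 3.55, above it in 14 of 15. The 3 CD4+ segments lay above the median in 5 libraries each, with 32.4% ± 13.4, 29% ± 8.25 and 28.1% ± 6.28 for TRBV17, TRBV19 and TRBV29. The single J segment most joined to CD8+ TRBV29 was TRBJ2-7 with 23% ± 2.76 of its reads, followed by TRBJ1-1 with 16.4% ± 1.8. CD4+ TRBV29 differed in this order, with TRBJ2-5 first at 22.1% ± 7.52 and TRBJ2-7 second at 19.4% ± 5.91.

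TRBV29 supplied 43 of the 189 CD8+ clonotypes listed in every library, beside its mean 20.8% of CD8+ reads. These 43 were 0.457% of 9405 CD8+ TRBV29 clonotypes, against 134 of 64210 (0.209%) of the segments other than these 3. They held 7.09% ± 2.13 of TRBV29 reads, against 5.16% ± 1.12 for the other segments (SD, n = 15). TRBV19 had 8 and TRBV17 had 4 such CD8+ clonotypes (0.136% each). Each CDR3 carries 1 V label over all libraries, so a CDR3 shared by several segments counts for only 1 of them. Among CD4+ clonotypes TRBV29 had 1, TRBV19 and TRBV17 had 0 each, and the other segments had 59 of 79747 (0.074%). On the median, clonotypes in 2 libraries had more bases outside the germline than those in more libraries, counted in the single base sequence given per clonotype. The median number of such bases in CD8+ TRBV29 was 11 for clonotypes in 2 libraries and 9 for those in 3 to 7. It was 8 both for those in 8 to 14 and for those in all 15. In CD4+ TRBV29 it was 11 for clonotypes in 2 libraries, 9 for those in 3 to 7 and 7 for those in 8 to 14.

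The shared CD8+ sequences printed above were chosen for being listed in every library, and their shares varied several-fold between libraries. The CD8+ TRBV29 clonotype with TRBJ1-1 made up 0.0567% to 0.311% of all reads before HCT, 0.0723% to 0.176% in liver and 0.0529% to 0.115% in gut. That of CD8+ TRBV19 ranged from 0.0353% to 0.106%, 0.0475% to 0.199% and 0.064% to 0.185%, and that of CD8+ TRBV17 from 0.0549% to 0.117%, 0.0437% to 0.258% and 0.0275% to 0.095%. Their ranges overlapped between sites. The CD4+ TRBV29 clonotype ranged more widely, at 0.000463% to 0.03% before HCT, 0.00136% to 0.0825% in liver and 0.00405% to 0.0335% in gut.

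Other clonotypes rose to high shares in 1 gut library. Those with the highest mean in gut are shown for CD4+ TRBV19, CD4+ TRBV17 and CD8+ TRBV29, because they account for the largest single contributions to these segments there. Capitals mark non-germline bases as before.
Gut CD4+ TRBV19 with TRBJ2-7: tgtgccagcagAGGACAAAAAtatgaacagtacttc
Gut CD4+ TRBV17 with TRBJ2-5: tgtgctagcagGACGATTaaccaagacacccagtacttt
Gut CD8+ TRBV29 with TRBJ2-7: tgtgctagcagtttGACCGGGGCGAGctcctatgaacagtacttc
The TRBV19 clonotype reached 0.607% of all reads in gut STAT3ko replicate 2 and was listed in 2 of 15 libraries. The TRBV17 clonotype reached 0.397% in gut STAT3koPD-1ko replicate 1, also in 2 libraries. The TRBV29 clonotype reached 0.556% in gut STAT3ko replicate 2, in 6 libraries. None of the 3 was listed above 0 before HCT. The CD4+ TRBV29 clonotype with the highest gut mean reached 0.237% in gut STAT3koPD-1ko replicate 1 and was listed before HCT at 0.0037% in 1 library.

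The spleen libraries also had frequent clonotypes of their own. The ones with the highest mean before HCT are shown for TRBV29 in both subsets and for CD4+ TRBV19, because they were high in 1 spleen library and low or unlisted in gut.
Spleen CD8+ TRBV29 with TRBJ2-5: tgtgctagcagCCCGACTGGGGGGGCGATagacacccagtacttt
Spleen CD4+ TRBV29 with TRBJ2-7: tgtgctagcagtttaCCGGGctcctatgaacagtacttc
Spleen CD4+ TRBV19 with TRBJ1-2: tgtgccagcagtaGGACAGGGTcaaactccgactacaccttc
The CD8+ TRBV29 clonotype made up 0.696% of the WT library before HCT, at most 0.103% in liver and at most 0.00315% in gut. The CD4+ TRBV29 clonotype made up 0.433% of the STAT3ko library before HCT, at most 0.24% in liver and at most 0.0035% in gut. The CD4+ TRBV19 clonotype made up 0.262% of the STAT3ko library before HCT, at most 0.0104% in liver and at most 0.00898% in gut.

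The most frequent clonotype of a segment therefore took different shares of it. In CD8+ T cells the top TRBV29 clonotype held 2.39% ± 0.587 of the segment's reads before HCT (n = 3), 1.58% ± 0.917 in liver and 2.55% ± 1.66 in gut (n = 6 each), and averaged over all libraries TRBV29 had the lowest such share of 18 segments. The top CD4+ TRBV17 clonotype held 7.8% ± 2.12 before HCT, 9.44% ± 2.44 in liver and 17.6% ± 11.4 in gut, with gut libraries from 5.56% to 36.5%. The top CD4+ TRBV19 clonotype held 12.8% ± 11.9 in gut, from 3.51% to 28.4%, and the top CD4+ TRBV29 clonotype 8.94% ± 5.08. The wide gut ranges overlapped with those of the other sites. Fewer TRBV17 clonotypes were listed in gut replicate 2 libraries of CD4+ T cells, down to 23, against up to 313 in gut replicate 1, and the part of this in the top shares was not tested.

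**Figure D5:**
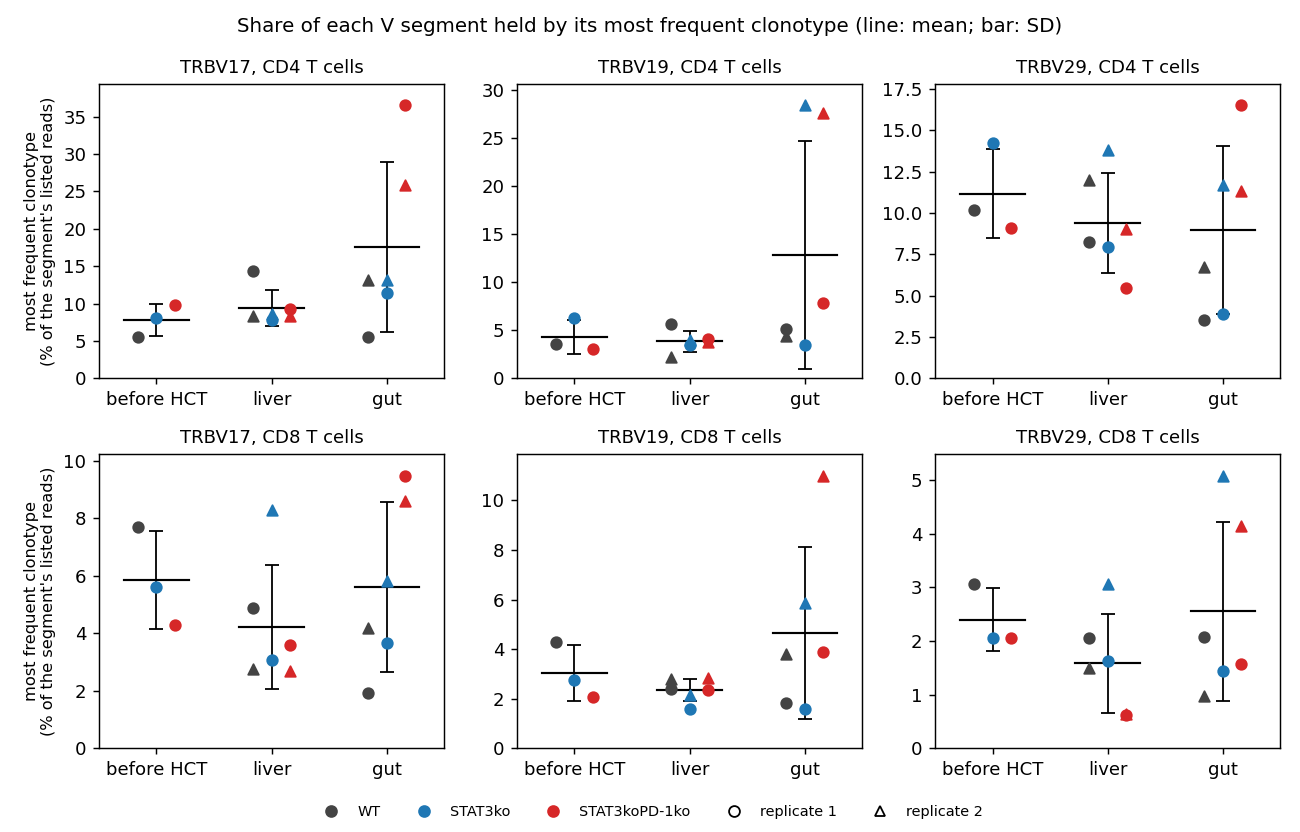
Share of each segment's listed reads held by its most frequent clonotype (%, y axes from 0, each panel to its own scale) in each library of CD4+ (top) and CD8+ (bottom) T cells, with mean (line) and SD (bar). Color gives the genotype and shape the replicate number. CD4+ TRBV17 in gut runs from 5.56% to 36.5%, and CD8+ TRBV29 stays at or below 5.08% in every library.

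Clonotypes rare before HCT and frequent on day 6 were counted with the study's thresholds for host-reactive clones, taken here as a mean below 0.001% over the 3 libraries before HCT and a mean above 0.01% over the 2 libraries of a tissue and genotype. In CD8+ liver TRBV29 gave 192 of 911 such clonotypes in WT, 229 of 1100 in STAT3ko and 258 of 745 in STAT3koPD-1ko T cells, and in CD8+ gut 139 of 611, 162 of 710 and 93 of 456. These are 20.4% to 34.6% of the host-reactive clonotypes, above the 11.4% that TRBV29 makes up of all listed CD8+ clonotypes and beside its 18.4% to 25.5% of reads. CD8+ TRBV19 gave 3.93% to 6.91%, below its 7.15% of listed clonotypes in all 6 groups, and CD8+ TRBV17 gave 3.18% to 5.07%, on both sides of its 3.56%. The 3 CD4+ segments together make up 7.03% of listed clonotypes. In liver they gave 7.25% (WT), 8.83% (STAT3ko) and 9.56% (STAT3koPD-1ko) of such clonotypes, and in gut 5.38%, 5.32% and 3.21%. Their summed usage, likewise higher in liver, averaged 8.55% ± 1.15 there and 5.45% ± 0.83 in the 6 gut libraries. CD4+ TRBV29 lay above its 1.53% of listed clonotypes in 5 of these 6 groups, and TRBV19 below its 4.17% in 5 of 6. All counts share the 3 libraries before HCT, and no test was run.

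Some members were listed with the same CDR3, V and J in both subsets. There were 293 such TRBV29 clonotypes, 22.4% of those in the CD4+ and 3.12% of those in the CD8+ table. For TRBV19 there were 344 (9.63% and 5.84%) and for TRBV17 55 (4.81% and 1.87%), and for the other segments together the shares were 7% and 8.69%. By clonotypes with the same label, CD4+ TRBV29 and TRBV19 lay above the other segments, and CD4+ TRBV17 and all 3 CD8+ segments below them. Only 35.3% of CDR3s found in both subsets carried the same V label, so these counts miss CDR3s shared under different labels. By CDR3 alone, 2397 of 9405 CD8+ TRBV29, 899 of 5895 TRBV19 and 543 of 2937 TRBV17 clonotypes were also listed in CD4+ T cells. Over all CD8+ segments this was 17941 of 82447, so the order given holds for same-label clonotypes only. The shared TRBV29 clonotypes held 22.4% ± 9.16 of CD4+ TRBV29 reads and 9.14% ± 3.4 of CD8+ TRBV29 reads (SD, n = 15), against 12.9% ± 3.14 and 14.8% ± 3.12 for the other segments. By reads CD4+ TRBV19, with 11% ± 4.76, lay below the other segments.

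Likeness was measured as the correlation of log2 usage over the 15 libraries of a table. In CD4+ T cells TRBV29 was most like TRBV5 (Pearson r = 0.88) and TRBV14 (0.844), TRBV19 like TRBV13-2 (0.782) and TRBV2 (0.712), and TRBV17 like TRBV20 (0.647) and TRBV29 (0.632). In CD8+ T cells TRBV29 was most like TRBV2 (0.777) and TRBV19 (0.693), TRBV19 like TRBV2 (0.738) and TRBV5 (0.697), and TRBV17 like TRBV1 (0.771) and TRBV20 (0.627). All values of a library share its 100%, so these are descriptions with no test.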

How the data were processed

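TCR alpha and beta chains were amplified with the SMARTer mouse TCR kit and sequenced on a MiSeq. CDR3 clones were called by MiXCR and joined over libraries with VDJtools by the authors, who deposited the fraction of each library's reads held by each CDR3, with 1 V, D and J label per row. Fractions of the listed clonotypes were divided by their sum and multiplied by 100 to give usage. Usage was tested as log2(usage percent + 0.1) with limma 3.58.1 in R 4.3.3 over all TRBV segments with a mean of at least 0.5%, two-sided, with site (or tissue) and genotype as terms and Benjamini-Hochberg adjustment within each table and comparison. The added 0.1 understates changes of low segments. Comparisons with the spleen used all 15 libraries of a table and the others the 12 day 6 libraries. Read depth is unknown and no counting interval was given.

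The 3 segments and all lists were chosen with earlier results of these data known. Named segments are the members, the BALB/c superantigen and NKT lists and the 2 segments most like each member, plus TRBV7, TRBV22, TRBV23, TRBV24, TRBV25, TRBV28 and TRBV31, named after their values were seen. Named clonotypes were drawn from those with the highest mean at each site and those listed in most libraries. Germline bases and positions come from GENCODE on GRCm38. Replicate numbers of liver and gut deviated together in CD8+ T cells (r = 0.286, 0.126 and 0.303 in WT, STAT3ko and STAT3koPD-1ko) and were taken as pairs there, from the usage values alone, although clonotype overlaps did not follow the numbers. Scripts were tested on simulated data. Tables were read with Python 3.11.15 and pandas 2.3.3.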

Additional observations from a re-analysis of the deposited data

How the results depend on the processing

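Counts are of the 3 segments that passed the adjusted threshold. The CD4+ gut against liver count of 3 was 2 with clonotypes in at least 3 or at most 3 libraries or without the gut replicate 2 libraries, 1 with each clonotype counted once and 0 with canonical CDR3s only, without TRBV26 and TRBV23, centred, or without the liver replicate 1 libraries. The CD4+ gut against before HCT count of 2 was 1 with canonical CDR3s only, without TRBV26 and TRBV23, or centred, and 3 as percent of all reads, with each clonotype counted once or without clonotypes above 0.1%. The CD8+ gut against before HCT count of 2 was 1 with each clonotype counted once, with clonotypes in at least 3 libraries, without clonotypes above 0.1% or without the gut replicate 2 libraries, and 0 when centred or with clonotypes in at most 3 libraries. The CD8+ gut against liver count of 1 was 2 with all segments tested, 3 as percent of all reads, 0 with each clonotype counted once, centred, with clonotypes in at least or at most 3 libraries or without the liver replicate 1 libraries, and 2 with the replicate block. Leaving out 1 library gave 0 to 2 for both CD8+ counts, 2 to 3 for CD4+ gut against before HCT and 3 for CD4+ gut against liver. The cause of these differences was not tested. Percent of all reads also falls with the share of reads listed, which was lowest in the gut replicate 2 libraries. Between liver and gut of a genotype, the r of the differences between replicates was 0.0111, 0.0189 and 0.176 in CD4+ T cells. Between genotypes of a tissue it was 0.358 to 0.502 (CD4+) and 0.506 to 0.866 (CD8+) in gut. In liver it was -0.294 to 0.231 (CD4+) and -0.167 to 0.338 (CD8+). The block left the CD4+ gut against liver count at 3 and all genotype counts at 0. Limits to clonotypes in at most 3 libraries and without CAW starts were chosen after seeing the data. Centring moved the CD8+ median by 0.33 (gut against liver) and 0.30 (gut against before HCT), with 10 segments higher and 0 lower against 3 and 4, and 9 and 1 against 3 and 6. In CD4+ gut against liver the split of 5 higher and 13 lower became 8 and 4 when centred, 7 and 3 without TRBV26 and TRBV23, and 4 and 5 with canonical CDR3s. In CD4+ gut against before HCT 5 and 12 became 7 and 6, 6 and 4, and 5 and 6. Sign changes were also seen, none of them past the threshold. In CD8+ T cells, TRBV17, TRBV19 and TRBV29 were 0.17, 0.10 and 0.03 (gut against before HCT) and 0.15, 0.11 and 0.21 (gut against liver) when centred. Also when centred, TRBV19 and TRBV29 were -0.03 each from WT to STAT3ko. With each clonotype counted once, CD8+ TRBV29 was 0.03 (gut against before HCT) and 0.06 (gut against liver). Without clonotypes above 0.1%, it was 0.05 (gut against before HCT) and 0.07 (liver against before HCT), and TRBV17 was 0.01 (gut against before HCT). CD8+ TRBV17, liver against before HCT, was -0.01 as percent of all reads, counted once or in at most 3 libraries, -0.03 in at least 3 libraries and -0.05 without liver replicate 1, where TRBV19 was 0.04. From STAT3ko to STAT3koPD-1ko, CD8+ TRBV17 and TRBV29 were -0.02 and -0.04 as percent of all reads, and TRBV17 was -0.11 in at most 3 libraries. In CD4+ T cells, TRBV17 was -0.30 (counted once) and -0.07 (at least 3 libraries) in liver against before HCT, and 0.03 (without gut replicate 2) and 0.10 (without TRBV26 and TRBV23) in gut against before HCT. From WT to STAT3ko, CD4+ TRBV19 was -0.01 counted once, TRBV17 -0.02 without liver replicate 1 and TRBV29 0.17 without gut replicate 2. From STAT3ko to STAT3koPD-1ko, CD4+ TRBV17 and TRBV29 were 0.04 and 0.09 counted once, 0.05 and 0.04 centred and 0.06 each in at most 3 libraries, TRBV19 was 0.06 in at least 3 libraries, and TRBV17 was 0.03 without CAW, 0.14 without liver replicate 1 and 0.07 without gut replicate 2. With 1 library left out, CD4+ TRBV17 and TRBV29 ranged from -0.08 to 0.22 and -0.29 to 0.15 (WT to STAT3ko) and -0.34 to 0.18 and -0.29 to 0.19 (STAT3ko to STAT3koPD-1ko), and CD8+ TRBV17 from -0.02 to 0.08 and TRBV19 from -0.06 to 0.05 (liver against before HCT) and TRBV17 from -0.03 to 0.17 (STAT3ko to STAT3koPD-1ko).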
